A study of Mus musculus with 8 samples.

Results

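Integrins are the receptors with which a cell holds on to the matrix around it. Each one is a pair of an α and a β subunit that crosses the membrane, binds matrix proteins such as laminin, collagen, fibronectin or vitronectin outside the cell, and couples to actin or keratin filaments inside through adapters such as talin and kindlin. Which pairs a carcinoma cell can build depends on which subunits it makes, since most α subunits have a fixed partner, and Itgb1 serves as the common β chain of many of them. The mRNAs of 10 subunits were followed here in LLC cells (Lewis lung carcinoma, a mouse lung carcinoma line): the laminin receptor chains Itga6, Itga3 and Itgb4, the fibronectin and vitronectin receptor chains Itga5, Itgav, Itgb3 and Itgb5, the collagen receptor chains Itga1 and Itga2, and Itgb1. They were taken by symbol from a fixed list and are 10 of the 27 integrin subunit genes and of the 55487 genes in the deposited tables.

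The series compared wild-type LLC cells with ΔAgo2 LLC cells, in which Argonaute 2, the protein that carries small RNAs to their target transcripts, had been knocked out with Cas9 and an Ago2 guide delivered by a lentivirus under puromycin selection. Each genotype had 4 libraries that the labels call biological replicates, all of cells kept in the same culture medium, with no further treatment, and all given the same batch number. Single-cell clones were sorted during the making of the lines, the labels do not say whether the sequenced ΔAgo2 cells are 1 clone, and genotype, clone and transduction cannot be told apart. Whether the replicates came from separate cultures is not described further, so the p-values measure the spread between these libraries.

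Totals ran from 39628101 to 68530912 counts per library, and all 10 subunits passed the filter on low counts that left 14228 genes. Ago2 itself stood at 18.9 to 127 TPM (a level scaled to gene length and library total) in wild-type and at 75.7 to 105 TPM in ΔAgo2 libraries (log2 difference 0.21, adjusted p = 0.908 in edgeR's quasi-likelihood test). A gene-level read count need not show a small edit, so this level does not check the labels, and every direction below rests on them. Wild-type replicate 4 stood apart from the other 7 libraries: its median Spearman correlation with its own group was 0.864, against 0.948 to 0.961 for the other wild-type and 0.985 to 0.986 for the ΔAgo2 libraries, and 0.54% of its counts were mitochondrial, against 2.38% to 4.51% elsewhere. For each of the 10 subunits and the 7 ratios below, the log2 value is given with and without it. Of 9 epithelial markers 4 passed the filter, with a summed level of 246.5 to 1675 TPM in wild-type and 730.1 to 1134 TPM in ΔAgo2 libraries, and with Krt8 and Krt18 detected in every library while Epcam, Cldn4 and Nkx2-1 were at or under 3 counts in all 8, and Cdh1 reached 9 counts at most. All 6 mesenchymal markers passed the filter, with a summed level of 2575 to 3312 TPM in wild-type and 3398 to 4438 TPM in ΔAgo2 libraries, mostly from Vim. Of 10 leukocyte markers, 3 of which are integrin subunits, 3 passed the filter and the list summed to 28.2 to 105 TPM in wild-type and 26.8 to 54.8 TPM in ΔAgo2 libraries, and the defining markers Ptprc, Cd3e, Adgre1 and Itgam were at or under 3 counts in every library. The highest marker of that list was Cd68, a lysosomal protein of macrophages, at 16.5 to 94.6 TPM in wild-type and 12.8 to 44.4 TPM in ΔAgo2 libraries, and Lyz2 stood at 1.19 to 6.30 TPM. Their part in the results was not tested. Endothelial markers summed to 0.04 to 0.77 TPM, fibroblast markers to 5.47 to 31.0 TPM and platelet markers to 0.89 to 6.55 TPM over the 8 libraries. In bulk RNA, fewer cells with a transcript and less of it per cell cannot be told apart.

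The subunits are related proteins written in different base composition, and wild-type replicate 4 differed from the other libraries along it. The following 60-base coding stretches of GRCm38 (mm10), read from the GENCODE M21 transcripts, lie at matching places of related subunits. For each set, the window of 20 codons was taken whose residues were most alike between the first subunit listed and the others. The likeness of the residues was thus fixed by the choice. Capitals mark positions where some members of the set have G or C and others A or T. The stretch of the β subunits lies in the ligand-binding head and holds the metal ion site that meets the ligand.
Itgb1, chr8:128713246-128713305, plus strand, exon 5: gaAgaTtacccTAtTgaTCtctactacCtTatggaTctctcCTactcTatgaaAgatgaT
Itgb3, chr11:104633436-104633495, plus strand, exon 4: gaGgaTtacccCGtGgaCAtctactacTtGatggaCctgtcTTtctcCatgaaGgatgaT
Itgb5, chr16:33875840-33875899, plus strand, exon 4: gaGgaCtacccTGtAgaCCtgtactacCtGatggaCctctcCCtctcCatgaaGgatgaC
Of the 20 codons, 17 in Itgb3 and 18 in Itgb5 encode the same residue as in Itgb1, while the G and C content was 36.7% in Itgb1, 46.7% in Itgb3 and 53.3% in Itgb5. Of the 15 capital positions, 11 are the last base of a codon. The stretch of the α subunits runs from the membrane-spanning segment into the short motif inside the membrane that clasps the β chain, and crosses an exon boundary in each gene, so the 60 bases lie within a longer genomic span.
Itga6, chr2:71849465-71853551, plus strand, exons 24 and 25: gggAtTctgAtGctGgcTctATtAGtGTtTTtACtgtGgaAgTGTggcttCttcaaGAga
Itgav, chr2:83802961-83803257, plus strand, exons 29 and 30: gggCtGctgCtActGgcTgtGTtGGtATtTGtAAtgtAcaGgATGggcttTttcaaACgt
Itga3, chr11:95046573-95046962, minus strand, exons 24 and 25: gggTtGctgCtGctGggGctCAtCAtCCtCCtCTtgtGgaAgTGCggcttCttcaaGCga
Itga5, chr15:103345335-103345993, minus strand, exons 29 and 30: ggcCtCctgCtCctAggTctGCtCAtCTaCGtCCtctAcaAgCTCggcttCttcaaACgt
Of the 20 codons here, 12 in Itgav, 14 in Itga3 and 12 in Itga5 encode the same residue as in Itga6. Of the 24 capital positions, 12 are the last base of a codon. The G and C content was 43.3% in Itga6, 46.7% in Itgav, 58.3% in Itga3 and 55.0% in Itga5. Itga6 and Itgav were likewise poorer in G and C over the whole coding sequences, where 51.7% of last codon positions in Itga6 and 52.3% in Itgav were G or C, against 70.6% in Itga3 and 65.0% in Itga5. Among the β chains, 41.1% of last positions were G or C in Itgb1, against 68.4% in Itgb3 and 68.8% in Itgb5.

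The first question was which integrins these cells make. By TPM, Itgb1 was the highest of the 10 subunits in 7 of the 8 libraries, at 518 to 1149 TPM in wild-type replicates 1 to 3 and 819 to 1020 TPM in ΔAgo2 libraries. Below it came a middle group of Itga6, Itga5, Itga3, Itgb5 and Itgav, whose order changed from library to library. Itgb4, Itga1, Itgb3 and Itga2 stayed under 11 TPM in every library. In wild-type replicate 4 the order was different, with Itga3 first at 194 TPM, Itgb5 next at 180 TPM, and Itgb1 below Itga5 at 106 TPM. Summed over all 27 subunits, integrin mRNA amounted to 1234 to 1950 TPM in wild-type and 2162 to 2268 TPM in ΔAgo2 libraries, and the 10 subunits made up 52.8% to 91.2% of it in wild-type and 74.0% to 81.9% in ΔAgo2 libraries.

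**Figure D1:**
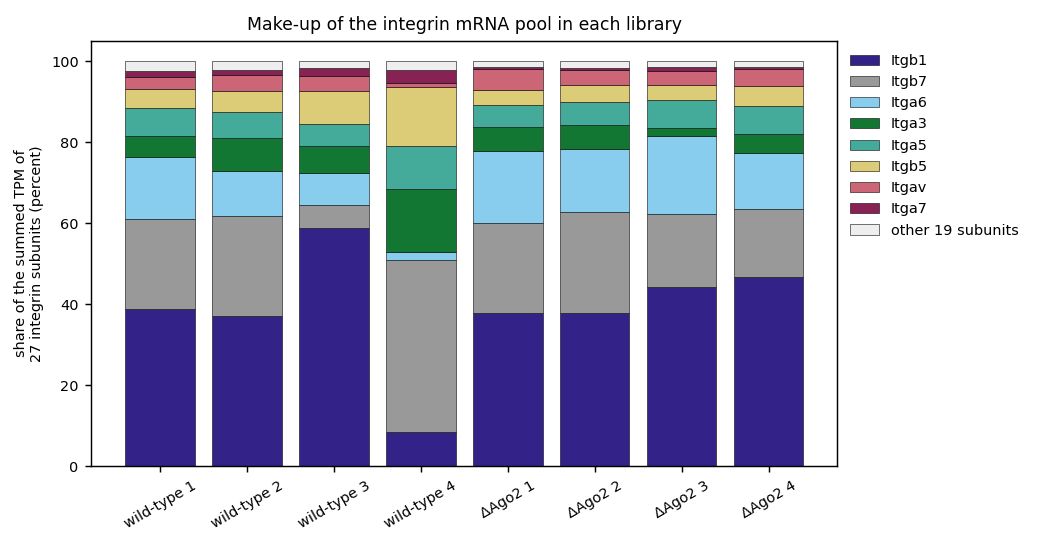
Stacked bars show, for each of the 8 libraries, the share (percent) of the summed TPM of 27 integrin subunits taken by 8 named subunits and by the other 19 together. Itgb1 and Itgb7 are the widest bands in most libraries, and in wild-type replicate 4 the bands of Itgb1, Itga6 and Itgav are narrow while those of Itga3, Itgb5 and Itgb7 are wide.

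The second question was whether the subunits differ between the genotypes. Itga6 and Itgav, both α chains, were higher in all 4 ΔAgo2 libraries than in any wild-type library, but neither passed the adjusted test. None of the 10 subunits had an adjusted p under 0.05, against 0.295% of all genes tested (42 genes; 0.0773% were higher and 0.218% lower in ΔAgo2). DESeq2 called none of the 10 either, with adjusted p of 0.282 for Itga6 and 0.478 for Itgav, against 2.23% of all genes. With an unadjusted p under 0.05, 2 of 10 were higher in ΔAgo2 and none was lower, where 7.34% of all genes were past this threshold (2.72% higher and 4.62% lower). With all 4 libraries of a genotype above all 4 of the other on the log2 CPM scale (counts scaled to library size), 2 of 10 were separate, both higher in ΔAgo2, where 6.07% of all genes were separate (3.09% higher and 2.98% lower). The median log2 fold change over the 10 was 0.28, beside −0.11 over all genes tested, and 7 of 10 were above 0. Without wild-type replicate 4 these medians were 0.29 and −0.04, and no member passed the adjusted test, where 0.777% of genes did. Itga6 and Itgav were then again the 2 of 10 higher at an unadjusted p under 0.05 and none was lower, where 12.6% of genes were past this threshold and 5.52% were higher.

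**Figure D2:**
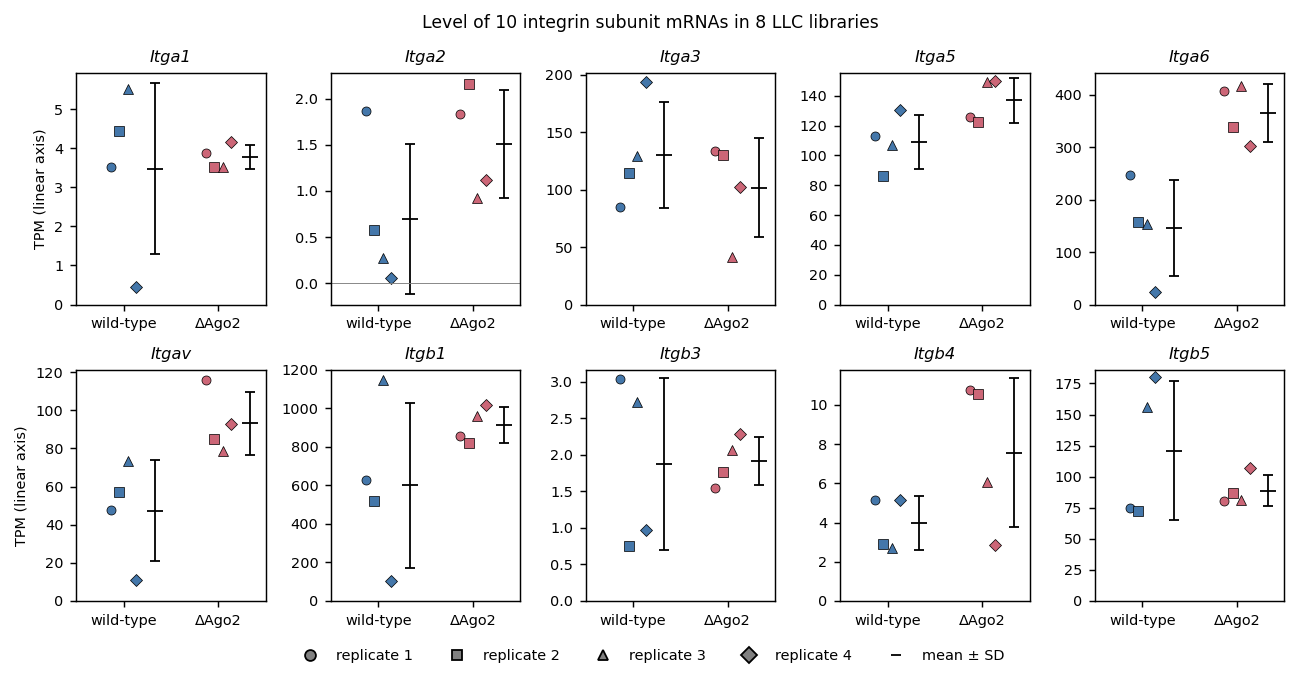
Level of each of the 10 subunits in TPM on linear axes, with 1 point per library, the shape of the point giving the replicate number, and the mean ± SD of the 4 libraries beside each group. The groups are separate for Itga6 and Itgav, and wild-type replicate 4 (diamond) is the lowest wild-type point for Itga1, Itga2, Itga6, Itgav and Itgb1.

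Among the laminin receptor chains, Itga6 pairs with Itgb1 in general and with Itgb4 in hemidesmosomes, the anchors of epithelial cells on their basement membrane. Itga6 (ENSMUSG00000027111.15, chromosome 2, 71745616 to 71858416, plus strand) stood at 247, 157, 153 and 23.8 TPM in wild-type replicates 1 to 4. It stood at 406, 338, 417 and 301.5 TPM in ΔAgo2 replicates 1 to 4. Every ΔAgo2 library was above the highest wild-type library, with group means of 145 ± 91.7 and 366 ± 55.2 TPM (SD, n = 4 each), and wild-type replicate 4 lay far below the other 3. The log2 fold change was 1.22 with a standard error of 0.49 (adjusted p = 0.613 in edgeR's quasi-likelihood test). Without wild-type replicate 4 it was 0.91 with a standard error of 0.27 (adjusted p = 0.2 in the same test). The difference was above 0 in 22 of 22 fits, and the adjusted p ran from 0.18 to 0.975 over them.

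Itga3, the α chain of a laminin receptor with Itgb1, did not share that pattern. Itga3 (ENSMUSG00000001507.16, chromosome 11, 95044474 to 95076801, minus strand) stood at 84.8, 114, 129 and 194 TPM in wild-type and at 133, 130, 41.2 and 102 TPM in ΔAgo2 replicates 1 to 4. The groups overlapped, the highest value was wild-type replicate 4, and ΔAgo2 replicate 3 was under the other 7 libraries. The log2 fold change was −0.69 ± 0.46 (SE, adjusted p = 0.74, edgeR) and −0.16 without wild-type replicate 4. Itgb4 (ENSMUSG00000020758.15, chromosome 11, 115974709 to 116008412, plus strand), the β chain with the long cytoplasmic tail that reaches keratin, stood at 5.17, 2.91, 2.69 and 5.13 TPM in wild-type and 10.7, 10.6, 6.09 and 2.87 TPM in ΔAgo2 replicates 1 to 4. In TPM, ΔAgo2 replicates 1 to 3 were above every wild-type library and replicate 4 was within the wild-type range. In CPM, ΔAgo2 replicate 3 (12.62) was under wild-type replicate 4 (16.21). The log2 fold change of Itgb4 was 0.60 ± 0.50 (SE, adjusted p = 0.783, edgeR), and 0.99 ± 0.47 (SE, adjusted p = 0.431) without wild-type replicate 4. Itgb4 shares 537 exonic bases with the antisense gene B230344G16Rik, which had at most 59 counts in a library while Itgb4 had more than that in every library, and the strand setting of the counting is not given in the sources used here.

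The αv chain, encoded by Itgav, binds ligands with the arginine-glycine-aspartate motif, such as vitronectin, and joins Itgb3 or Itgb5. Itgav (ENSMUSG00000027087.11, chromosome 2, 83724397 to 83806916, plus strand) stood at 47.9, 57.0, 73.5 and 10.9 TPM in wild-type replicates 1 to 4. In ΔAgo2 replicates 1 to 4 it stood at 116, 84.8, 78.5 and 93.1 TPM. The groups did not overlap, but the highest wild-type library, replicate 3, was close to the lowest ΔAgo2 library. With group means of 47.3 ± 26.5 and 93.1 ± 16.4 TPM (SD, n = 4 each), the log2 fold change was 0.88 with a standard error of 0.39 (adjusted p = 0.678 in edgeR's quasi-likelihood test). Without wild-type replicate 4 it was 0.60 with a standard error of 0.19 (adjusted p = 0.25 in the same test). Itgav was higher in ΔAgo2 in 22 of 22 fits, with an adjusted p of 0.139 at the least.

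Its β partners differed from it. Itgb5 (ENSMUSG00000022817.15, chromosome 16, 33829665 to 33949338, plus strand), the partner in the vitronectin receptor αvβ5, stood at 75.0, 72.2, 156 and 180 TPM in wild-type and 80.1, 86.5, 80.9 and 107 TPM in ΔAgo2 replicates 1 to 4. In TPM the ΔAgo2 libraries lay between the low and the high pair of wild-type libraries. In CPM, ΔAgo2 replicates 1 to 3 (75.42, 84.66 and 85.02) were under wild-type replicate 1 (86.28). The log2 fold change was −0.77 ± 0.43 (SE, adjusted p = 0.731, edgeR) and −0.24 without wild-type replicate 4, and it was below 0 in all 22 fits. Itgb3 (ENSMUSG00000020689.4, chromosome 11, 104608000 to 104670476, plus strand), the β chain of αvβ3 and of the platelet fibrinogen receptor, stood at 3.04, 0.75, 2.72 and 0.97 TPM in wild-type and 1.54, 1.77, 2.07 and 2.29 TPM in ΔAgo2 replicates 1 to 4. All 4 ΔAgo2 values lay inside the wild-type range (log2 fold change −0.16 ± 0.50, SE, adjusted p = 0.946, edgeR, and −0.27 without wild-type replicate 4). Its sign turned in 7 of 21 alternatives, so no direction is given for it. Itga5 (ENSMUSG00000000555.8, chromosome 15, 103344286 to 103366763, minus strand), the α chain of the main fibronectin receptor with Itgb1, stood at 113, 86.5, 107 and 130 TPM in wild-type and 126, 122, 149 and 150 TPM in ΔAgo2 replicates 1 to 4. It varied less than the other middle-level chains, and in TPM the groups overlapped in wild-type replicate 4 alone. In CPM wild-type replicate 1 overlapped too, at 180.3 against 164.7 and 166.0 in ΔAgo2 replicates 1 and 2. The log2 fold change of Itga5 was 0.05 ± 0.32 (SE, adjusted p = 0.977, edgeR). Without wild-type replicate 4 it was 0.37 ± 0.20 (SE, adjusted p = 0.49), and it fell below 0 in 3 of 21 alternatives.

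The collagen receptor chains Itga1 and Itga2, neighbours on the minus strand of chromosome 13, were near the low end. Itga1 (ENSMUSG00000042284.10, 114953096 to 115101964), which prefers basement membrane collagen, stood at 3.52, 4.45, 5.51 and 0.45 TPM in wild-type and 3.88, 3.52, 3.53 and 4.17 TPM in ΔAgo2 replicates 1 to 4. Apart from wild-type replicate 4, which was far below all others, the libraries spanned a narrow range. Its log2 fold change was 0.05 ± 0.49 (SE, adjusted p = 0.987, edgeR) and −0.29 ± 0.19 (SE, adjusted p = 0.562) without that library, so the sign rests on it. Itga2 (ENSMUSG00000015533.9, 114833081 to 114932100), which prefers fibrillar collagen, stood at 1.87, 0.58, 0.27 and 0.06 TPM in wild-type and 1.83, 2.16, 0.92 and 1.12 TPM in ΔAgo2 replicates 1 to 4. Wild-type replicate 1 was as high as the ΔAgo2 libraries and the other 3 were lower, with 6 counts behind the value of replicate 4. The log2 fold change was 0.95 ± 0.78 (SE, adjusted p = 0.783, edgeR) and 0.62 without wild-type replicate 4. Wild-type replicate 1 moved it most, to 2.28 ± 0.63 (SE, adjusted p = 0.293, edgeR) when that library was left out.

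Itgb1 (ENSMUSG00000025809.15, chromosome 8, 128685654 to 128733200, plus strand), the common β chain, stood at 630, 518, 1149 and 106 TPM in wild-type replicates 1 to 4. In ΔAgo2 replicates 1 to 4 it stood at 858, 819, 959 and 1020 TPM. The wild-type libraries spread from far below to above the ΔAgo2 libraries, which lay close together. The log2 fold change was 0.51 ± 0.49 (SE, adjusted p = 0.809, edgeR), and 0.20 ± 0.30 (SE) without wild-type replicate 4. It stayed above 0 in 22 of 22 fits, and the spread between wild-type libraries was as large as the difference.

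The spread itself differed between the groups. The median over the 10 subunits of the standard deviation of log2 CPM was 1.00 among wild-type libraries, 0.59 among wild-type libraries without replicate 4, and 0.22 among ΔAgo2 libraries. Over all genes tested the same medians were 0.78, 0.43 and 0.23, so the ΔAgo2 libraries were alike for the integrins as for other genes, and the wild-type spread was somewhat larger for the integrins. The reason for the tighter ΔAgo2 group was not tested.

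The place of wild-type replicate 4 went with base composition. On the log2 CPM scale it lay under the mean of wild-type replicates 1 to 3 by a difference of −2.64 for Itga1, −2.66 for Itga2, −2.29 for Itga6, −2.13 for Itgb1 and −1.78 for Itgav. It lay above that mean by 1.57 for Itgb5, 1.49 for Itga3, 1.21 for Itgb4 and 1.00 for Itga5, with Itgb3 at −0.29. The first set are the 5 subunits whose longest transcript has under 50% G and C (42.8% in Itga1 to 48.9% in Itga6), and this library was the lowest wild-type library for all 5 of them. Of the 5 subunits at 50% or more (52.1% in Itgb3 to 60.0% in Itgb4), it was the highest wild-type library for 4 of 5, the exception being Itgb3. Over the 10 subunits the correlation between G and C content and this deviation was r = 0.95 (Spearman's rho 0.81), given as a description over points that share 1 library. Over all genes with a known G and C content, the same library's deviation had a Spearman's rho of 0.72 with it, and the origin of this was not tested. The fitted log2 fold change of the 10 subunits had r = −0.69 (rho −0.66) with the deviation of that library. That library is part of the wild-type group in the fit, so a negative value is partly built in and is no test. Without wild-type replicate 4 the log2 fold change had r = −0.03 (rho 0.22) with G and C content.

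**Figure D3:**
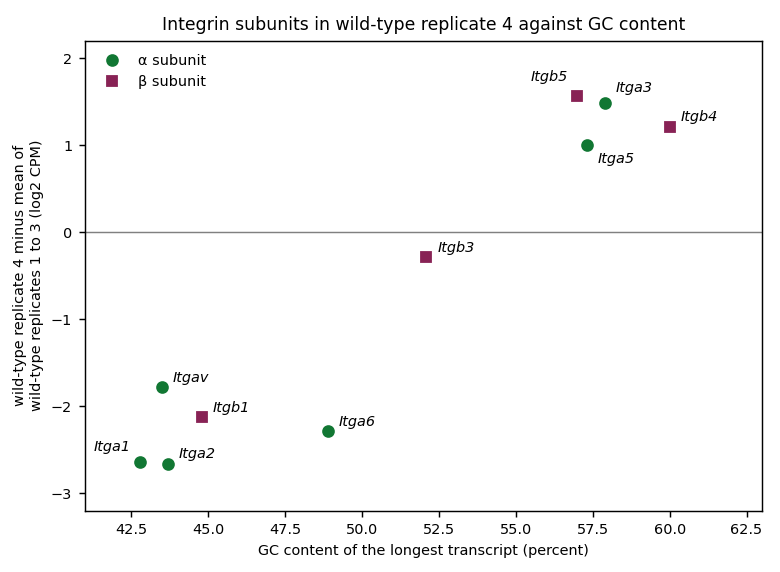
For each of the 10 subunits, the G and C content of the longest transcript (percent, x axis) against wild-type replicate 4 minus the mean of wild-type replicates 1 to 3 (log2 CPM, y axis); circles are α and squares β subunits. The 5 subunits under 50% lie between −2.66 and −1.78, and 4 of the other 5 lie between 1.00 and 1.57.

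An offset for G and C content in each library brought the fitted values nearer to those without wild-type replicate 4 for every subunit except Itgb3. The shift was largest for Itgb5, Itga3, Itga5 and Itgb4. With the offset, the log2 fold change of Itgb5 was −0.32, that of Itga3 −0.24 and that of Itga5 0.42, while Itga6 stayed at 1.21 (adjusted p = 0.403, edgeR). Itgav had 0.75 ± 0.21 (SE, adjusted p = 0.202, edgeR) and Itgb4 1.02 ± 0.40 (SE, adjusted p = 0.435, edgeR). With an unadjusted p under 0.05 these 3 of 10 were higher in ΔAgo2 in this fit, where 4.48% of genes were. Itga2, Itga5, Itga6, Itgav, Itgb1 and Itgb4 had a log2 fold change above 0 in all 3 of these fits, and none passed the adjusted test in any of them.

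**Figure D4:**
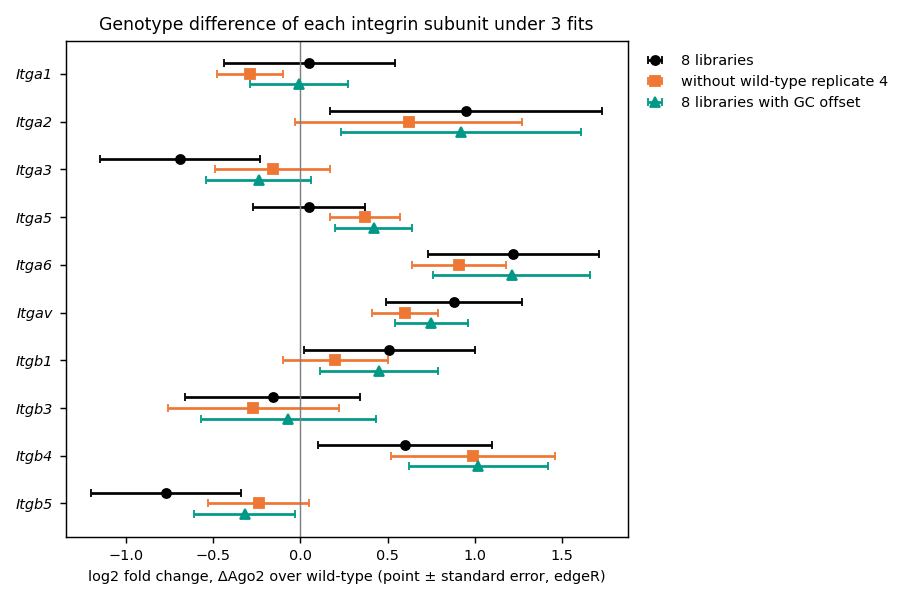
Fitted log2 fold change of each subunit, ΔAgo2 over wild-type, as a point with its standard error, from all 8 libraries (circle), without wild-type replicate 4 (square) and from 8 libraries with the G and C offset (triangle). Itga6 and Itgav lie above 0 by more than a standard error in each fit, while Itga3 and Itgb5 lie nearer to 0, and Itga5 farther above it, in the other fits than with all 8 libraries.

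Since the subunits work as pairs, 7 ratios of TPM between subunits were compared within each library, which removes the scaling of the library. Itgav over Itgb5 was the only one of the 7 without overlap: it was 0.638, 0.789, 0.47 and 0.0605 in wild-type and 1.45, 0.98, 0.97 and 0.87 in ΔAgo2 replicates 1 to 4. The log2 difference was 1.60 (exact permutation p = 0.0286, two-sided, the smallest that 4 against 4 libraries allow, and 0.2 after Benjamini-Hochberg adjustment over the 7 ratios). Without wild-type replicate 4, where a subunit poor in G and C is set against one rich in them, the log2 difference was 0.76 (exact permutation p = 0.0286, adjusted 0.2). The exact permutation p rose to between 0.0857 and 0.114 when any 1 of the ΔAgo2 libraries was left out. It stayed at 0.0286 when any 1 of the wild-type libraries was left out. The groups were without overlap in all of these runs.

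Itga6 over Itgb1, the chains of the laminin receptor α6β1, was 0.391, 0.303, 0.134 and 0.225 in wild-type and 0.473, 0.413, 0.435 and 0.296 in ΔAgo2 replicates 1 to 4. The ΔAgo2 libraries were higher except that replicate 4 fell among the wild-type values (log2 difference 0.70, exact permutation p = 0.0857, adjusted 0.3), and the difference was 0.67 without wild-type replicate 4. Itga6 over Itgb4 was 47.7, 53.9, 57.0 and 4.64 in wild-type and 37.8, 32.0, 68.5 and 105 in ΔAgo2 replicates 1 to 4, so at the mRNA level Itga6 stood far above its hemidesmosome partner in every library. That ratio did not separate the genotypes (log2 difference 0.92, exact permutation p = 0.486, and 0.04 without wild-type replicate 4). Itgav over Itgb3 had a log2 difference of 0.98 (exact permutation p = 0.229), which was 0.61 without wild-type replicate 4 and 1.53 without wild-type replicate 2 (exact permutation p = 0.0286, adjusted 0.1). Itgb3 over Itgb5 had one of 0.61 (exact permutation p = 0.371), which was 0.15 without wild-type replicate 4 and 1.12 without wild-type replicate 1 (exact permutation p = 0.0286, adjusted 0.1). Itga5 over Itgb1 lay between 0.147 and 0.156 in the ΔAgo2 libraries and between 0.0929 and 1.23 in wild-type libraries. Its log2 difference was −0.69 (exact permutation p = 0.6) with wild-type replicate 4 and 0.09 without it. The 6 α chains together over Itgb1 gave −0.33 (exact permutation p = 0.771) and 0.27 without that library, so both ratios changed sign with 1 library.

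**Figure D5:**
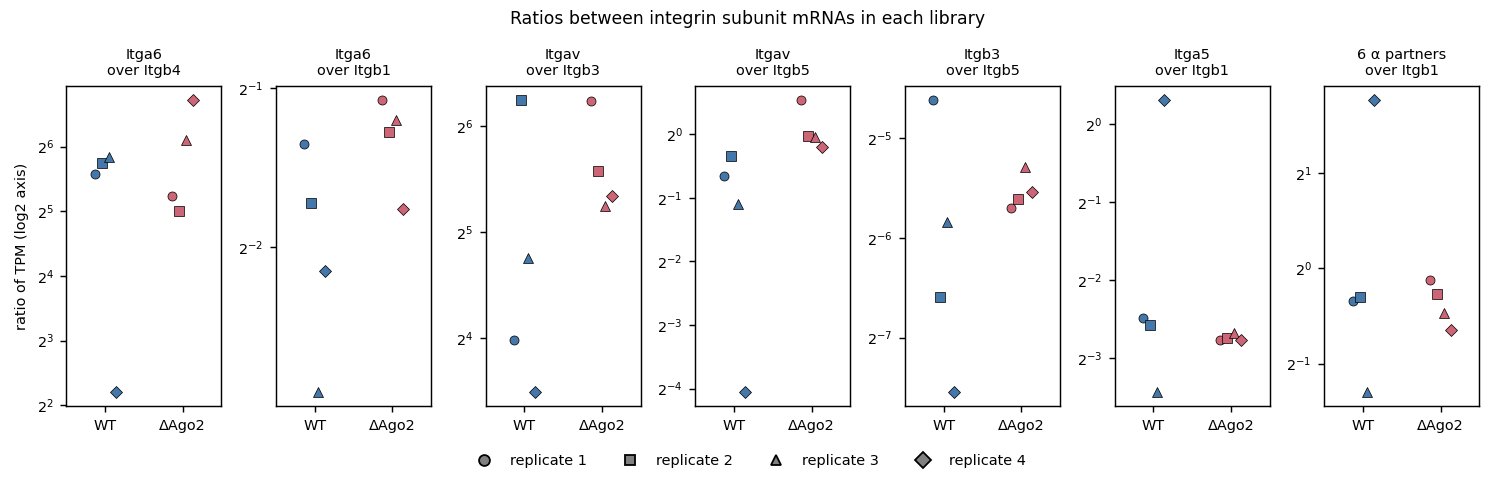
The 7 ratios of TPM between subunits in each library, on log2 axes, with 1 point per library and the shape giving the replicate number. The groups are separate for Itgav over Itgb5 alone, and wild-type replicate 4 (diamond) is an extreme point in 6 of the 7 panels.

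The other 17 subunits place these 10 in the whole family. Of the 17, 8 passed the filter, none passed the adjusted test, and 1 had an unadjusted p under 0.05, where 7.34% of all genes did. That gene was Itga7, a laminin receptor α chain best known from muscle, at 23.3, 15.6, 39.4 and 38.6 TPM in wild-type and 11.3, 10.8, 16.7 and 8.61 TPM in ΔAgo2 replicates 1 to 4. The ΔAgo2 values were lower except that replicate 3 passed wild-type replicate 2. Its log2 fold change was −1.60 ± 0.44 (SE, adjusted p = 0.289, edgeR) and −1.19 without wild-type replicate 4 (adjusted p = 0.208), and DESeq2 gave an adjusted p of 0.036. Thus among the laminin-binding α chains Itga6 had the higher values in ΔAgo2 and Itga7 the lower, with Itga3 overlapping, and whether these differ from each other was not tested.

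Itgb7, the β chain of lymphocyte homing receptors, was the most abundant subunit outside the 10. Itgb7 (ENSMUSG00000001281.10, chromosome 15, 102215995 to 102231944, minus strand) stood at 358, 341, 111 and 522 TPM in wild-type and 501, 535, 395 and 364 TPM in ΔAgo2 replicates 1 to 4. The groups overlapped (log2 fold change 0.09 ± 0.49, SE, adjusted p = 0.973, edgeR). Without wild-type replicate 4 the log2 fold change was 0.68 ± 0.37 (SE, adjusted p = 0.484, edgeR), and with the G and C offset it was 0.59. In wild-type replicate 4 Itgb7 was above all 10 members. Its known α partners were nearly absent: Itga4 had at most 1 count in a library and Itgae lay between 0.1 and 0.41 TPM. Itgb2, the β chain of leukocyte integrins, stood at 3.07 to 15.0 TPM, while of its α partners Itgal had at most 11 counts and Itgam at most 2, and Itgax lay between 0.98 and 6.55 TPM. Itga2b, the platelet partner of Itgb3, stood at 2.27 to 8.07 TPM, Itga10 at 1.79 to 4.85 TPM and Itgb8, a further partner of Itgav, at 0.04 to 1.21 TPM. For these 5 and Itgae the adjusted p lay between 0.706 and 0.985 (edgeR), and Itgb2 moved most without wild-type replicate 4, from a log2 fold change of −0.68 to −0.06. Itga8, Itga9, Itga11, Itgad, Itgb6 and Itgb2l did not pass the filter either, each with at most 24 counts in a library.

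Genes that act with integrins were read in fixed lists beside the 14228 genes tested. Of 17 tested activators and inhibitors at the cytoplasmic tails, none passed the adjusted test, and 1 was higher and 3 lower at an unadjusted p under 0.05, where 2.72% of all genes were higher and 4.62% lower. The higher gene was Apbb1ip, which brings talin to the membrane with Rap1, at 24.3 to 45.8 TPM in wild-type and 60.3 to 75.7 TPM in ΔAgo2 libraries (log2 fold change 0.66 ± 0.23, SE, adjusted p = 0.502, edgeR). Its log2 fold change was 0.62 ± 0.15 (SE, adjusted p = 0.123, edgeR) without wild-type replicate 4 and 0.01 ± 0.42 (SE) with the G and C offset. The groups of Apbb1ip did not overlap, where 3.09% of all genes were separate and higher in ΔAgo2. Among the lower genes, Itgb1bp1, which competes with talin for the Itgb1 tail, had a log2 fold change of −0.79 ± 0.26 (SE, adjusted p = 0.464, edgeR). Its groups did not overlap, where 2.98% of all genes were separate and lower in ΔAgo2. Tln1, talin itself, had −1.13 and −0.49 without wild-type replicate 4, and Rasgrp2, a Rap1 activator at 72 counts or fewer, had −2.32 and −1.45 without that library. The median of the list was 0.03, beside −0.11 over all genes, and −0.05 beside −0.04 without wild-type replicate 4.

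Of 27 focal adhesion adapters and kinases, none passed the adjusted test with all libraries, and 2 were higher and 1 lower at an unadjusted p under 0.05, where 7.34% of all genes passed that threshold, with a median of −0.09 (0.20 without wild-type replicate 4). Tns1, a tensin that binds β tails, stood at 0.26 to 0.52 TPM in wild-type and 1.08 to 2.37 TPM in ΔAgo2 libraries (log2 fold change 2.16 ± 0.46, SE, adjusted p = 0.12, edgeR). Tgfb1i1, which encodes the paxillin relative Hic-5, had 59 to 389 counts in wild-type and 3 to 12 in ΔAgo2 libraries (−4.59 ± 0.95, SE, adjusted p = 0.107, edgeR). With all 8 libraries DESeq2 gave an adjusted p of 0.000183 for Tns1 and 3.24e-06 for Tgfb1i1, where 2.23% of all genes were called. Without wild-type replicate 4 these 2 of 27 also passed the adjusted test in edgeR, where 0.777% of all genes did. Tns1 was then at 2.64 (adjusted p = 0.0172, edgeR) and Tgfb1i1 at −3.02 (adjusted p = 0.0366, edgeR). Tns3, a further tensin, had 0.81 ± 0.32 (SE, adjusted p = 0.592, edgeR).

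Only 3 of 6 hemidesmosome partners of Itgb4 could be tested, with a median of 0.24 and none past either threshold. They were the linkers Plec (0.05, and 0.36 without wild-type replicate 4) and Dst (0.27, and −0.08) and the tetraspanin Cd151 (0.24). Without wild-type replicate 4, 1 of the 3 passed the adjusted test, where 0.777% of all genes did. This was Cd151 (log2 fold change 1.03, adjusted p = 0.0308, edgeR). With all 8 libraries Cd151 had 0.69 with the G and C offset (adjusted p = 0.424, edgeR), and DESeq2 gave an adjusted p of 0.935. Among 11 tested membrane partners none passed, 2 were higher at an unadjusted p under 0.05, where 2.72% of all genes were, and the median was 0.39 (0.31 without wild-type replicate 4). These were Emp2 at 0.65 ± 0.26 and Cav1, the main protein of caveolae, at 0.78 ± 0.34 (SE), with adjusted p of 0.613 and 0.669 (edgeR). Each had no overlap of the groups, where 3.09% of all genes were separate and higher in ΔAgo2. Cd47 followed at 0.64 (adjusted p = 0.706, edgeR).

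Of 23 tested ligands, 1 passed the adjusted test, where 0.295% of all genes did (0.218% were lower). It was Lama1, the α1 chain of laminin, lower in ΔAgo2. Lama1 had 20 to 27 counts in each wild-type library and 0 or 1 in each ΔAgo2 library (adjusted p = 0.0209, edgeR), a level of at most 0.17 TPM. No gene of the lists, Lama1 included, passed when wild-type replicate 1 or any 1 of the ΔAgo2 libraries was left out. The median of the list was −0.11, equal to that over all genes, and −0.28 beside −0.04 without wild-type replicate 4. Among the abundant ligands, fibronectin (Fn1) stood at 422 to 960 TPM in wild-type and 531 to 750 TPM in ΔAgo2 libraries (adjusted p = 0.926, edgeR). The laminin chain Lama5 stood at 224 to 398 and 327 to 454 TPM (adjusted p = 0.842, edgeR), and Vtn, vitronectin, had at most 2 counts in a library. Next in the list by p were Fbn1 at 1.08 (adjusted p = 0.678) and Tgfb1 at −0.62 (adjusted p = 0.728, edgeR). Of 13 tested integrin trafficking genes none passed and 1 was lower at an unadjusted p under 0.05, where 4.62% of all genes were: Acap1, which acts in recycling of Itgb1, at −2.03 ± 0.52 (SE, adjusted p = 0.244 in edgeR and 0.00463 in DESeq2), and −1.47 without wild-type replicate 4. Ap2m1 and Snx17, which sort integrins in endocytosis and recycling, had −0.71 and −0.59, and −0.10 and 0.22 without wild-type replicate 4.

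The genes whose log2 CPM was most like that of Itga6, the member with the smallest p, were Ankrd42 (r = 0.993), Frrs1 (r = 0.993) and Gm12602 (r = 0.99) over the 8 libraries. Over the 7 libraries without wild-type replicate 4 they were Gm12602 (r = 0.993), Pxn (r = 0.981), the focal adhesion adapter paxillin, and Map3k5 (r = 0.977). Among the members, Itgav came closest over 8 libraries (r = 0.917) and Itga5 over 7 (r = 0.794), so the order changed with 1 library. These values describe a likeness over few libraries and carry no p.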

How the data were processed

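RNA-seq of cultured LLC cells was read from 2 deposited tables, with 4 wild-type and 4 ΔAgo2 libraries. Per the methods and labels, libraries were made with a stranded mRNA kit, sequenced in paired ends, aligned to ribosomal RNA and then to mm10 with STAR, and counted per gene with featureCounts. The annotation release and the strand setting are not given in the sources used here. The deposited counts are whole reads per gene, not normalized, and the authors also deposited TPM, scaled to gene length and library total. Symbols, positions and GC content came from GENCODE M21 (GRCm38), in which 93 of 55487 identifiers had no match.

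Counts were filtered with filterByExpr, scaled with TMM and tested between the genotypes with edgeR 4.0.16 (R 4.3.3), by a two-sided quasi-likelihood test with Benjamini-Hochberg adjustment over 14228 genes and genotype as the only factor. The standard error is the log2 fold change over the square root of F. Levels are TPM, and differences are fitted log2 fold changes of counts. Ratios of TPM were compared with exact permutation tests. DESeq2 1.42.0 and limma 3.58.1 served as alternatives, together with other scalings, filters, a replicate block, a GC offset, pseudocounts of 1 and 0.1 on TPM, and each library left out in turn. The methods were run on counts simulated with the dispersion estimated from these libraries. At an adjusted p under 0.05, edgeR recovered 0 of 200 genes changed by a log2 of 1 and 78 of 200 changed by 2. DESeq2 recovered 20 and 154 of them. For each gene the simulation gave both genotypes the same dispersion, and it held no shift of a whole library. Its changed genes were drawn at random, not at the levels of the members. In such counts, changes by a log2 of 1 mostly did not pass, and whether this holds for the members was not tested. The standard errors and SDs reflect the spread between libraries, while the floor of 3 counts covers counting error only. The members and lists were chosen with earlier results of these data known. Genes named are the 10 members, the other subunits that passed the filter, and from each list those with an adjusted p under 0.05 and the 3 with the smallest p. The genes most like Itga6 were taken by their correlation with it. Besides these, Tln1, Fn1, Lama5, Vtn, the markers, B230344G16Rik and the subunits under the filter were named after their values were seen, and Ago2 as the targeted gene.

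The result for 1 marker gene is not reported here.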

Additional observations from a re-analysis of the deposited data

Results flagged for a closer look

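Among 50 groups of 4 libraries examined on the log2 scale (the subunits that passed the filter and the ratios, by genotype), 3 had 1 library whose gap to the nearest other exceeded Dixon's 95% critical value for 4 samples, and chance gives about 1 in 20 groups. Itga1 in wild-type had a gap of 0.832 of the group's range, with replicate 4 low. Itgax, the α chain of a leukocyte integrin, had a gap of 0.95 in ΔAgo2 with replicate 2 low. The ratio of Itga6 to Itgb4 had a gap of 0.929 in wild-type, with replicate 4 low.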

How the results depend on the processing

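The count of genes called, 42 with all libraries, was 399 with DESeq2, 257 with voom and sample weights, 143 with no filter on low counts, 2 with at least 10 counts in all 8 libraries, 70 with the GC offset and 15 with limma on log2(TPM + 1), and it ran from 1 (without ΔAgo2 replicate 1) to 113 (without wild-type replicate 4) when 1 library was left out. The count called in the fixed lists, 1 with all libraries, was 5 with DESeq2, 4 with voom and sample weights, 3 with no filter, 2 with the GC offset, 0 with the filter of 10 counts and on both TPM scales, and 0 to 4 when 1 library was left out. No member passed the adjusted test in any of the 209 fits of a member under an alternative, where the smallest adjusted p was 0.139, and its direction was reversed in 15 of them. Itgb3 turned to 0.072 with limma-voom, 0.11 and 0.25 on the log2(TPM + 1) and log2(TPM + 0.1) scales, and ran from −0.47 to 0.19 when 1 library was left out (0.0033 without wild-type replicate 3). Itga1 turned to −0.19 with sample weights, −0.015 with the GC offset, and lay between −0.29 and 0.35 with 1 library left out (lowest without wild-type replicate 4, and −0.0092 without ΔAgo2 replicate 4). Itga3 turned to 0.040 with sample weights, and Itga5 ran from −0.15 to 0.37 when 1 library was left out, below 0 without wild-type replicate 2, wild-type replicate 3 or ΔAgo2 replicate 3. The log2 difference of the ratio of Itga5 to Itgb1 ran from −1.15 to 0.090 and that of the 6 α chains to Itgb1 from −0.75 to 0.27, both above 0 without wild-type replicate 4. The causes were not tested. Itga2 gave no value with the filter of 10 counts in all libraries.

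Deviations of same-numbered libraries of the genotypes had r from −0.14 to 0.38 over 4 pairs, and those of different-numbered libraries −0.36 to 0.46 over 12 pairs. So few pairs cannot decide whether the numbers pair the libraries, and the labels do not say. With the replicate block 18 genes were called, and Itgb3 turned to 0.061, or to 0.20 with the GC offset and replicate block, under which 2 genes of the fixed lists and 60 genes in all were called; 1 of 4 wild-type libraries correlated best with its own number.

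Depth limits Itga2 and Itgb3 most, with as few as 6 and 80 counts in a library. An adjusted p over the threshold does not show that a subunit was equal between the genotypes, since the wild-type spread leaves wide intervals.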
